A study of Mus musculus with 7 samples.

Results

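The Hox genes described here are 38 mouse genes in 4 clusters: 10 in Hox cluster A on chromosome 6, 10 in cluster B on chromosome 11, 9 in cluster C on chromosome 15 and 9 in cluster D on chromosome 2. They were chosen by gene symbol, and every exon array probe set that carries exactly 1 of these symbols was taken, which gave 262 probe sets for 37 of the genes. Hoxd4 had no probe set of its own. A probe set is a group of short probes read as 1 value, and 311384 probe sets with exactly 1 symbol covered 22083 genes in all.

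Hox genes encode homeodomain transcription factors that give cells their position along the head to tail axis of the embryo and along the limbs. Within a cluster the order of the genes follows the order of their domains in the body, with low paralog numbers expressed early and towards the head and high numbers late and towards the tail. In undifferentiated embryonic stem cells the clusters are known as large domains under Polycomb repression with both activating and repressive histone marks, largely silent until differentiation or retinoic acid opens them.

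The study asked how loss of Mettl3, the catalytic subunit of the enzyme complex that writes N6-methyladenosine into RNA, affects gene expression in J-1 mouse embryonic stem cells. All cells had been infected with a lentivirus and grown in full medium. The control carried a hairpin against luciferase (3 arrays), and the knockdown groups carried Mettl3 hairpin 1 (2 arrays) or Mettl3 hairpin 2 (2 arrays). Each sample of total RNA went onto its own Affymetrix exon array. The labels give no time after infection, no selection, no hairpin sequence and no word on separate cultures, so the spread that the p-values below rest on may be a technical one. The small number of arrays limits the precision.

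The targeted gene followed the labels. Mettl3 stood at 10.38, 10.46 and 10.14 on the luciferase arrays, 8.97 and 8.67 with hairpin 1 and 8.71 and 8.66 with hairpin 2 on the log2 scale. All knockdown values lay below all control values, and Mettl3 fell by 1.57 ± 0.10 (SE, log2; limma adjusted p = 0.000116). The 10 stem cell markers had mean levels of 11.97 to 12.11 with luciferase and 11.89 to 12.06 with a Mettl3 hairpin, and 0 of the 10 were called by limma (1 at an unadjusted p below 0.05). For fibroblasts, which can be present as feeder cells, 13 of 15 markers were tested and 0 were called (3 at an unadjusted p below 0.05). Their mean level was 7.17 to 7.27 with luciferase and 7.04 to 7.26 with a Mettl3 hairpin. The untested markers Lum and S100a4 had all-probe-set values of 2.52 to 3.46 and of 5.04 to 5.90 over the 7 arrays. Of early lineage markers, limma called for both hairpins 2 higher and 1 lower of 9 neuroectoderm genes. It also called 1 lower of 8 mesoderm genes and 1 lower of 10 endoderm genes. Over all genes it called 7.9%, and 24.2% had an unadjusted p below 0.05.

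A smaller share of the Hox probe sets than of all probe sets of genes was bright in these cells. Of the 262 Hox probe sets, 51.9% had a mean over the 7 arrays above 6.02, the midpoint of the whole array, against 75.4% of the probe sets of all genes and 98.8% of those of the stem cell markers. A stricter mark was taken from olfactory receptor genes, which are not expected in these cells: 95% of their probe sets lay below 7.17. This reference was chosen after values had been seen. Of the Hox probe sets 27.9% passed it, against 59.1% over all genes. Of the fibroblast marker probe sets 53.8% lay above 6.02 and 29.5% passed the mark. Probes differ in how strongly they bind, so such shares describe signal and not the number of transcripts, and levels of different probe sets are not on one scale. RNA of whole cultures cannot tell a low level in every cell from expression in a small fraction of cells.

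The clusters differed in these shares. In cluster B, 62.9% of 70 probe sets lay above the array median and 38.6% above the olfactory receptor mark. Clusters A and D lay close to each other, with 50.7% and 56.3% above the array median and 28.4% and 31.0% above the stricter mark. Cluster C was the dimmest: 18 of its 54 probe sets (33.3%) lay above the array median and 5 (9.26%) above the mark. These are descriptions of probe sets, which share transcripts, and carry no test. By member, 35 of the 38 genes had at least 1 probe set above the array median and 30 had at least 1 above the olfactory receptor mark, among them all 10 genes of cluster B and 5 of 9 of cluster C. By position, 37.5% of the probe sets of anterior genes (paralog groups 1 to 3), 26.5% of those of central genes (groups 4 to 8) and 24.1% of those of posterior genes (groups 9 to 13) passed the mark.

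**Figure D1:**
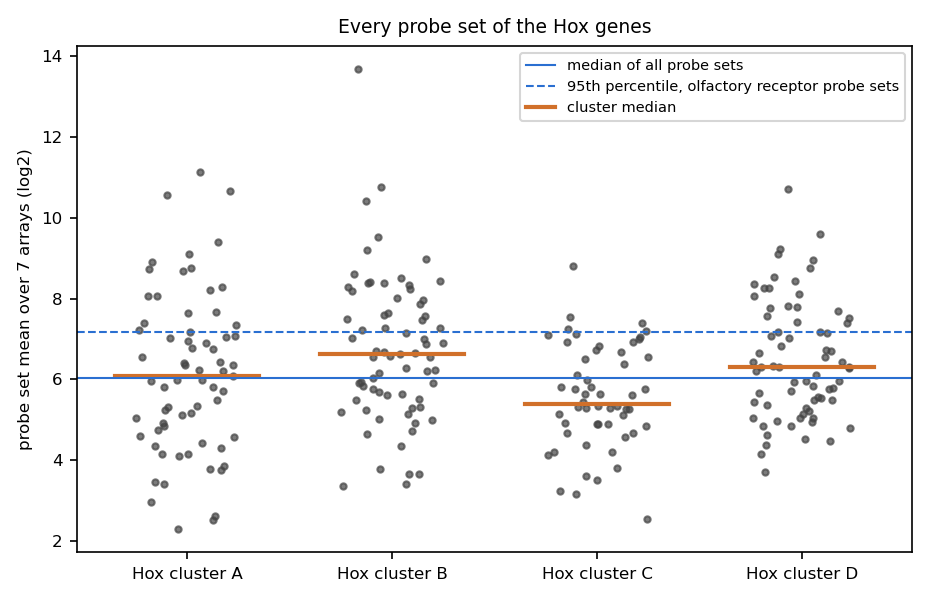
Each point is 1 of the 262 Hox probe sets, placed by its mean log2 value over the 7 arrays (vertical axis) and by Hox cluster (horizontal axis). Orange bars are cluster medians (6.07, 6.63, 5.39 and 6.31 for A to D), the solid line is the median of all probe sets (6.02) and the dashed line the 95th percentile of olfactory receptor probe sets (7.17); cluster C has the fewest points above both lines.

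A few Hox probe sets were bright on every array. A Hoxb3 probe set (5126208) read 13.73, 13.46 and 13.67 with luciferase, 13.75 and 13.75 with hairpin 1 and 13.75 and 13.77 with hairpin 2. It was bright on all 7 arrays, and the other 6 kept probe sets of Hoxb3, a gene of hindbrain patterning, had means from 6.55 to 10.41. A Hoxa7 probe set (4850826) read 11.19, 11.25 and 11.31 with luciferase, 11.13 and 10.97 with hairpin 1 and 11.10 and 10.96 with hairpin 2. Its knockdown values lay below its luciferase values, but limma on single probe sets did not call it. A Hoxd1 probe set (4578630) read 10.75, 10.63 and 10.82, then 10.53 and 10.97, then 10.70 and 10.51, with the groups overlapping.

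For a test per gene, the value of a gene was the median of its probe sets above 6.02, with at least 3 required. That left 24 Hox genes (7 of cluster A, 8 of B, 2 of C, 7 of D) among 16353 genes tested. The other 14, Hoxa5, Hoxa6, Hoxa13, Hoxb8, Hoxb13, Hoxc5, Hoxc6, Hoxc8, Hoxc9, Hoxc10, Hoxc11, Hoxc12, Hoxd4 and Hoxd12, had too few such probe sets. The 24 are therefore the members with at least 3 probe sets above the filter, not all Hox genes: of the other 14, 11 had 1 or 2 such probe sets and 6 had a probe set above the olfactory receptor mark, among them Hoxb8 and Hoxb13.

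With both Mettl3 hairpins combined, no Hox gene rose or fell past the threshold. Limma called 0 of the 24 at an adjusted p below 0.05, where it called 7.9% of all genes (2.37% as lower). The adjusted p-values ran from 0.0604 to 0.957. At an unadjusted p below 0.05 there were 4 of 24, against 24.2% of all genes, and all 4 were lower: Hoxa2, Hoxb1, Hoxb3 and Hoxd3. The differences ran from -0.50 (Hoxa2) to 0.20 (Hoxa11), and 21 of 24 were smaller than 0.25 in size, in a log2 unit where 1 is a 2-fold change. All 24 of the 95% intervals lay within a 2-fold change: the highest upper bound was a 1.34-fold increase (Hoxa3) and the lowest lower bound a 1.77-fold decrease (Hoxa2). A p that misses the threshold does not show that a gene was unaffected, and the intervals give what these arrays allow. They are intervals of signal, and tested genes of clusters A to D had luciferase means below the olfactory receptor mark of 7.17, among them Hoxa2 (6.73) and Hoxd13 (6.60).

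The values of the tested Hox genes sat slightly low with the knockdown. Their median difference was -0.09, against 0.00 over all genes tested. Of the 24 values 18 (75%) were negative, against 49.9% of all genes and 54.2% of the 9372 genes whose luciferase value lay in the range of the Hox genes (6.60 to 8.76). With arrays centred on their median gene, the median difference over all genes tested was itself -0.06. There the median of the Hox genes was -0.15 and 22 of 24 values were negative. The 49.9% and 54.2% are without centring, and the share of all genes negative with centring was not counted. The counts of Hox genes describe the list and are not a test of it, since the genes share arrays and clusters. Cluster medians were -0.07 (A), -0.12 (B), -0.06 (C, 2 genes) and -0.10 (D). The within-group SD of a single Hox gene had a median of 0.157, against 0.119 over all genes. Of the fibroblast markers 10 of 13 values were negative with a median of -0.14 (12 of 13 and -0.15 with hairpin 2), and of the endoderm markers 9 of 10 with a median of -0.07. The stem cell markers had 6 of 10 negative values (median -0.06), the mesoderm markers 5 of 8 (-0.11) and the neuroectoderm markers 4 of 9 (0.01). The part of such cells in the Hox values was not tested. In 2 Hox genes, Hoxa2 and Hoxb3, all 4 knockdown arrays lay below all 3 luciferase arrays, which held for 8.4% of all genes. In 0 of 24 all 4 lay above, against 13.4% of all genes.

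**Figure D2:**
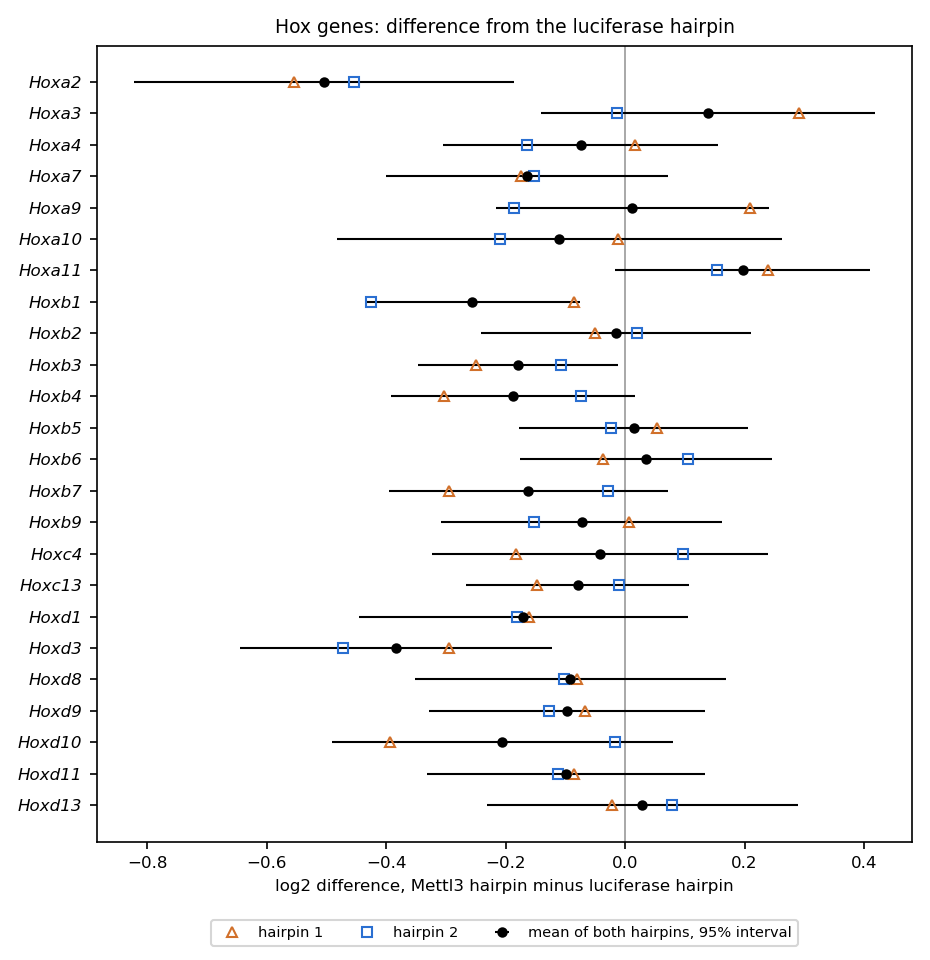
For each of the 24 tested Hox genes (vertical axis), the black point is the log2 difference between both Mettl3 hairpins and the luciferase hairpin with its 95% interval from limma, and open symbols are the single hairpins. The intervals of Hoxa2, Hoxb1, Hoxb3 and Hoxd3 lie below 0, and every interval stays within 1 of 0.

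By position along the clusters, the anterior genes held all 4 of the lower values at an unadjusted p below 0.05. They were 4 of 7 anterior genes, with 0 of 8 central and 0 of 9 posterior genes. The median differences were -0.18, -0.08 and -0.08. With all probe sets in the gene value, no anterior gene reached that p (0 of 7) and 5 of 16 posterior genes did, 4 lower and 1 higher (Hoxb13), against 17.0% of all genes, so this order depended on the filter on dim probe sets. The difference between positions was not tested.

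The anterior genes are described first. Hoxa2 patterns the hindbrain and the skeleton of the second branchial arch. It stood at 6.89, 6.65 and 6.65 with luciferase, 5.94 and 6.41 with hairpin 1 and 6.51 and 6.04 with hairpin 2. All 4 knockdown arrays were below the controls, but the arrays of a hairpin differed from each other by nearly as much as the groups did. The difference was -0.50 ± 0.14 (SE), 1.42-fold lower, with a limma adjusted p of 0.0604. Without array 2 of hairpin 1 or array 1 of hairpin 2 it was -0.62. Without array 1 of hairpin 1 or array 2 of hairpin 2 it was -0.39. Of the 3 kept probe sets of Hoxa2, 4688129 differed by -0.57, 4435168 by -0.17 and 4938598 by 0.02, and limma called none of them. The value with all 5 probe sets of the gene differed by -0.05 (limma adjusted p = 0.950), and there the groups overlapped. With hairpin 1 that value differed by 0.04 and with hairpin 2 by -0.14. The Hoxa2 value from the kept probe sets lay below the olfactory receptor mark on every array, although 1 probe set had a mean above that mark.

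Hoxd3, which acts in the skeleton of the neck, stood at 8.50, 8.74 and 9.03 with luciferase, 8.42 and 8.51 with hairpin 1 and 8.32 and 8.26 with hairpin 2. The luciferase arrays were the more spread out, and the lowest of them overlapped with hairpin 1. The difference was -0.38 ± 0.12 (SE; limma adjusted p = 0.0785). Without luciferase array 1 it was -0.51 (adjusted p = 0.0393), and without luciferase array 3 it was -0.25 (adjusted p = 0.195). The gene value was that of a single probe set (4383328), the middle one of 5 kept. The brightest of the 5 (5290601) differed by 0.00, and the value with all 13 probe sets of the gene was 0.05.

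Hoxb3 stood at 7.74, 7.66 and 7.73 with luciferase, 7.41 and 7.51 with hairpin 1 and 7.60 and 7.60 with hairpin 2. The replicates were close together and the groups did not overlap. The difference was small, -0.18 ± 0.07 (SE; limma adjusted p = 0.179). Its 7 kept probe sets went from -0.44 (5580967) to 0.14 (the bright probe set 5126208). The value with all 9 probe sets of the gene differed by -0.004 (limma adjusted p = 0.993), and there the groups overlapped. The remaining anterior genes, Hoxa3, Hoxb2 and Hoxd1, differed by 0.14, -0.01 and -0.17.

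Hoxb1, the earliest acting gene of its cluster and needed for the facial motor neurons of the hindbrain, was the 1 member called in these comparisons of gene values, with hairpin 2, where limma called 3.79% of all genes. It stood at 7.58, 7.46 and 7.66 with luciferase, 7.45 and 7.51 with hairpin 1 and 7.18 and 7.10 with hairpin 2. The arrays of hairpin 2 were below all others, while those of hairpin 1 overlapped with luciferase. With hairpin 2 Hoxb1 fell by 0.43 ± 0.10 (SE, log2; limma adjusted p = 0.0422). With hairpin 1 the difference was -0.08 (adjusted p = 0.656) and with both -0.26 (adjusted p = 0.0867). Tested directly, hairpin 1 minus hairpin 2 was 0.34 for Hoxb1 (adjusted p = 0.383), so the hairpins were not shown to differ.

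The Hoxb1 call rested on the processing. It was kept under quantile normalization (-0.42, adjusted p = 0.0389), with centred arrays (-0.49, adjusted p = 0.0440) and without luciferase array 2 (-0.48, adjusted p = 0.0456), and it was lost under each of the other alternatives run. Using all probe sets gave -0.18 (adjusted p = 0.557) and the mean of the kept probe sets -0.18 (adjusted p = 0.264). Leaving out 1 array gave -0.42 (adjusted p = 0.129) without luciferase array 1, -0.38 (0.105) without luciferase array 3 and -0.43 (0.0537) without either array of hairpin 1. It gave -0.46 (0.148) and -0.39 (0.303) without arrays 1 and 2 of hairpin 2. The 6 kept probe sets moved unequally: with hairpin 2, probe set 4983856 differed by -0.52, 5387093 by -0.33 and 5222063 by 0.32. Limma called none of them singly.

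**Figure D3:**
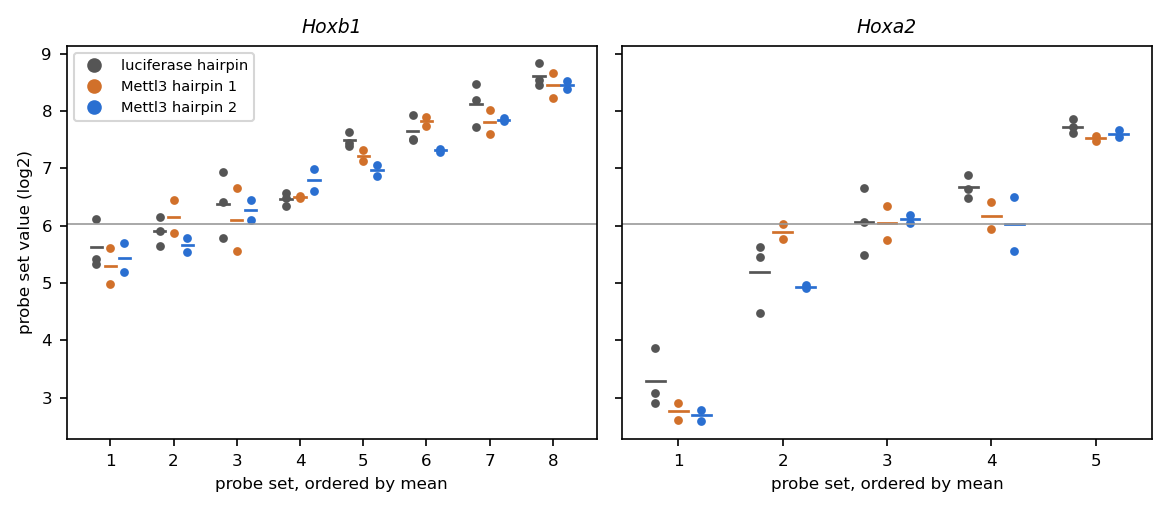
Every probe set of Hoxb1 (left) and Hoxa2 (right), ordered by mean (horizontal axis), with its log2 value on each of the 7 arrays (points) and group means (bars). The grey line is the filter at 6.02; in Hoxb1 the fourth probe set from the left (5222063) is higher with hairpin 2 while the fifth (4983856) is lower.

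The upstream sequences of the called member and of the member with the largest difference are shown because each holds a match to TGATNNAT, a motif of the kind that Hox and Pbx proteins bind together. They are the 250 bases before the transcription start in RefSeq (GRCm38.p6), 5′ to 3′ on the strand of the gene, with the match on either strand in capitals. As background, Hoxb1 is known to be regulated by its own protein together with Pbx through upstream elements. Hoxb1 is at chr11:96365508-96365757, plus strand, and Hoxa2 at chr6:52164832-52165081, minus strand.
Hoxb1: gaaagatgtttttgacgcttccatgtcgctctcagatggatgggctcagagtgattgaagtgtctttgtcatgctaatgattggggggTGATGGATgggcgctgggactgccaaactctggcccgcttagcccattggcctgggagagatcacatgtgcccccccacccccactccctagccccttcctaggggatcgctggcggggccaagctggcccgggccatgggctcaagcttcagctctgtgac
Hoxa2: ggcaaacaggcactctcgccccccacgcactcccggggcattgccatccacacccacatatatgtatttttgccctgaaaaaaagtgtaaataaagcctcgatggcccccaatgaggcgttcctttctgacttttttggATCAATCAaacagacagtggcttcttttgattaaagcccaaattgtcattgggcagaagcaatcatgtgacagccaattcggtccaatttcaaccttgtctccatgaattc
The Hoxb1 match, TGATGGAT, begins 162 bases before the start, and the Hoxa2 match lies on the opposite strand, where it reads TGATTGAT. RefSeq gave 24 upstream sequences for 22 of the 38 members. Of these 4 (16.7%) held TGATNNAT on either strand, the other 2 being Hoxb8 and Hoxd11, against 7.68% of 32851 promoters of all genes. The retinoic acid receptor half-site AGGTCA was in 6 (25%), against 14.0% of all. The Hox sequences were rich in CpG, with a median of 12.5 CpG per 250 bases against 6.0 over all genes, but Hoxb1 and Hoxa2 had 7 and 6. A match is a description of letters, not of binding. The Hoxd3 sequence held no TGATNNAT although Hoxd3 differed by -0.38, while Hoxd11 differed by -0.10 and Hoxb8 by 0.26 (all probe sets). Whether matches go with differences was not tested.

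Among the central genes, Hoxb4, which can expand blood stem cells, stood at 7.94, 7.65 and 7.91 with luciferase, 7.49 and 7.57 with hairpin 1 and 7.79 and 7.72 with hairpin 2. Hairpin 1 was below the controls and hairpin 2 lay within them. The difference with both was -0.19 ± 0.09 (SE; limma adjusted p = 0.245). Hoxa7 (-0.16), Hoxb7 (-0.16) and Hoxb5 (0.01), genes of the trunk, were not called either, with limma adjusted p-values of 0.379, 0.380 and 0.940. Hoxb7 differed by -0.30 with hairpin 1 (limma unadjusted p = 0.0403, adjusted p = 0.201). Hoxb5 changed sign under several alternatives and has no settled direction. Hoxc4, 1 of only 2 testable genes of cluster C, stood at 7.14, 6.77 and 7.24 with luciferase, 6.70 and 7.03 with hairpin 1 and 7.15 and 7.14 with hairpin 2, with the groups overlapping.

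Among the posterior genes, Hoxd10, a gene of lumbar motor neurons and limbs, stood at 7.63, 7.68 and 7.57 with luciferase, 7.32 and 7.14 with hairpin 1 and 7.32 and 7.90 with hairpin 2. Hairpin 1 was low on both arrays, and hairpin 2 had 1 array below and 1 above the controls. The difference was -0.39 with hairpin 1 (limma adjusted p = 0.167) and -0.02 with hairpin 2. Hoxa11, a gene of the forearm and uterus, had the highest difference, 0.20 ± 0.10 (SE; adjusted p = 0.245), from 7.04, 6.91 and 6.85 with luciferase to 7.03 and 7.31 and to 7.16 and 7.02. With the mean of its 3 kept probe sets it was -0.02 and with all 7 probe sets -0.49, so it has no settled direction. Hoxd13, a gene of the digits, differed by 0.03, and Hoxc13, a gene of hair and nails, by -0.08.

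**Figure D4:**
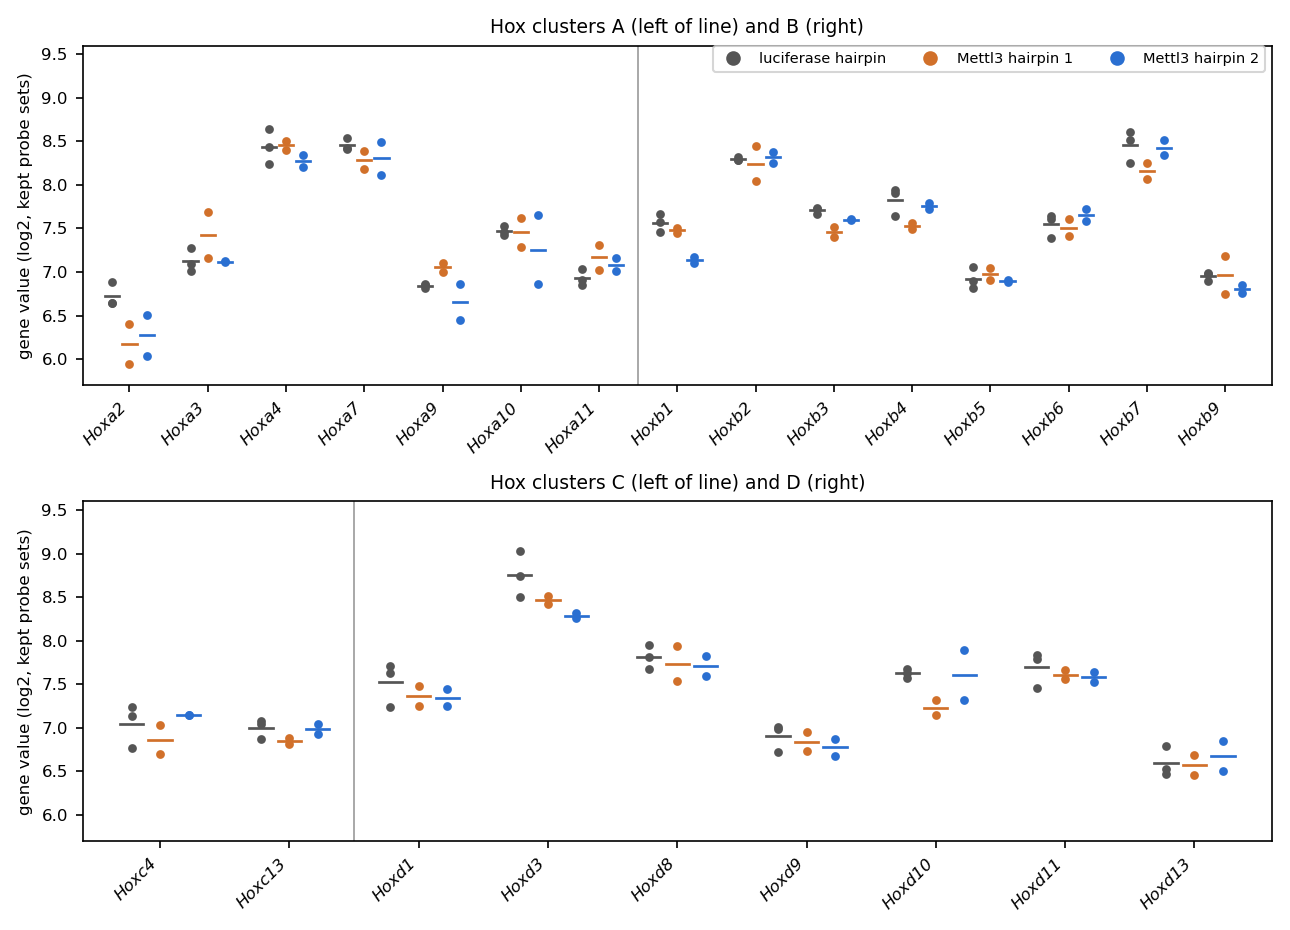
Gene values (log2, median of kept probe sets) of the 24 tested Hox genes on each of the 7 arrays, by cluster; points are arrays and bars are group means. The control and knockdown points overlap in most genes; Hoxa2 and Hoxb3 have all 4 knockdown arrays below the 3 luciferase arrays, and the hairpin 2 arrays of Hoxb1 are below the rest.

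The hairpins taken one at a time share the 3 luciferase arrays, so their values are given side by side. With hairpin 1, limma called 0 of 24 Hox genes, against 5.89% of all genes. The 5 with an unadjusted p below 0.05, against 22.2% of all genes, were Hoxa2, Hoxb3, Hoxb4, Hoxb7 and Hoxd10, all lower. With hairpin 2 it called 1 of 24, Hoxb1, against 3.79% of all genes (1.08% lower), and 3 had an unadjusted p below 0.05 (18.7% of all genes). Between the hairpins 0 of 24 were called by limma, against 0.104% of all genes, and 3 had an unadjusted p below 0.05 (8.78% of all genes). The median difference of the Hox genes was -0.08 with hairpin 1 and -0.11 with hairpin 2. With a single hairpin the bounds were wider, up to a 1.54-fold increase and a 1.91-fold decrease.

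Single probe sets were tested without the gene summary. Limma called 0 of the 136 kept Hox probe sets for both hairpins, where it called 2.15% of all kept probe sets, and 9 had an unadjusted p below 0.05 (18.1% of all). It also called 0 with hairpin 1 (1.27% of all), 0 with hairpin 2 (0.386%) and 0 between hairpins (0 of all), with 7, 7 and 4 at an unadjusted p below 0.05 (17.0%, 13.4% and 6.60% of all). Of the 136 differences with both hairpins, 94 were negative, with a median of -0.09 against 0.02 over all kept probe sets. Probe sets of a gene share transcripts, so this count is a description and not a test.

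The dim members were examined with all their probe sets, bright or not. In that fit of 22083 genes, 1 of 37 Hox genes was called for both hairpins, against 1.55% of all genes. It was Hoxc11, a posterior gene of the hindlimb, at 4.51, 4.45 and 4.71 with luciferase, 4.16 and 4.16 with hairpin 1 and 3.68 and 3.91 with hairpin 2. The groups did not overlap, and the all-probe-set value of Hoxc11 fell by 0.58 ± 0.10 (SE, log2; limma adjusted p = 0.0476). Every value lay below the array median of 6.02. Of its 3 probe sets the only one above that median, 5508832, differed by -0.12. With hairpin 1, with hairpin 2 and between hairpins 0 of 37 were called by limma, against 0.774%, 0.231% and 0 of all genes, with 4, 5 and 2 at an unadjusted p below 0.05 (15.9%, 13.5% and 7.41% of all genes).

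The other 12 genes outside the main test went from -0.57 to 0.26 in the difference for both hairpins. Hoxc12 was the lowest at -0.57 (limma adjusted p = 0.207) and Hoxa13, a gene of the digits and urogenital tract, stood at -0.34 (adjusted p = 0.108). Hoxa13 read 5.17, 5.21 and 5.17 with luciferase, 4.55 and 4.70 with hairpin 1 and 5.14 and 4.97 with hairpin 2, with hairpin 1 the lower. Hoxb8, a gene of trunk and blood cells, and Hoxb13, a prostate gene, stood at 0.26 and 0.23. Hoxc5 differed by -0.17 ± 0.38 (SE), with 1 array of hairpin 1 at 4.09 and the other 6 arrays at 5.28 to 5.89. For Hoxd4, 13 probe sets carried its symbol together with that of Hoxd3, and the median of the 9 kept ones was 6.78, 7.05 and 7.07 with luciferase, 7.05 and 7.04 with hairpin 1 and 7.08 and 6.95 with hairpin 2, with the groups overlapping.

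Genes that work with, next to or upstream of the Hox genes were counted in lists. Hox proteins bind DNA with TALE cofactors of the Pbx, Meis and Pknox families, and of 8 such genes tested 1 rose and 1 fell by limma for both hairpins, against 7.9% of all genes called. Pbx3 stood at 8.23, 8.33 and 8.17 with luciferase, 9.15 and 9.07 with hairpin 1 and 8.97 and 9.21 with hairpin 2. All 4 knockdown arrays were well above the controls, and Pbx3 rose by 0.86 ± 0.09 (SE, log2; adjusted p = 0.000693), 0.87 with hairpin 1 and 0.85 with hairpin 2. The call was kept in all 17 alternatives run (0.65 to 0.92). Meis2 stood at 8.03, 8.23 and 7.996 with luciferase, 7.64 and 7.74 with hairpin 1 and 7.55 and 7.62 with hairpin 2. It was lower on every knockdown array and fell by 0.45 ± 0.09 (SE, log2; adjusted p = 0.0130), a call lost with no filter on dim probe sets (adjusted p = 0.0789). The other 6 cofactors ranged from -0.23 (Meis1) to 0.33 (Meis3, adjusted p = 0.0641).

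**Figure D5:**
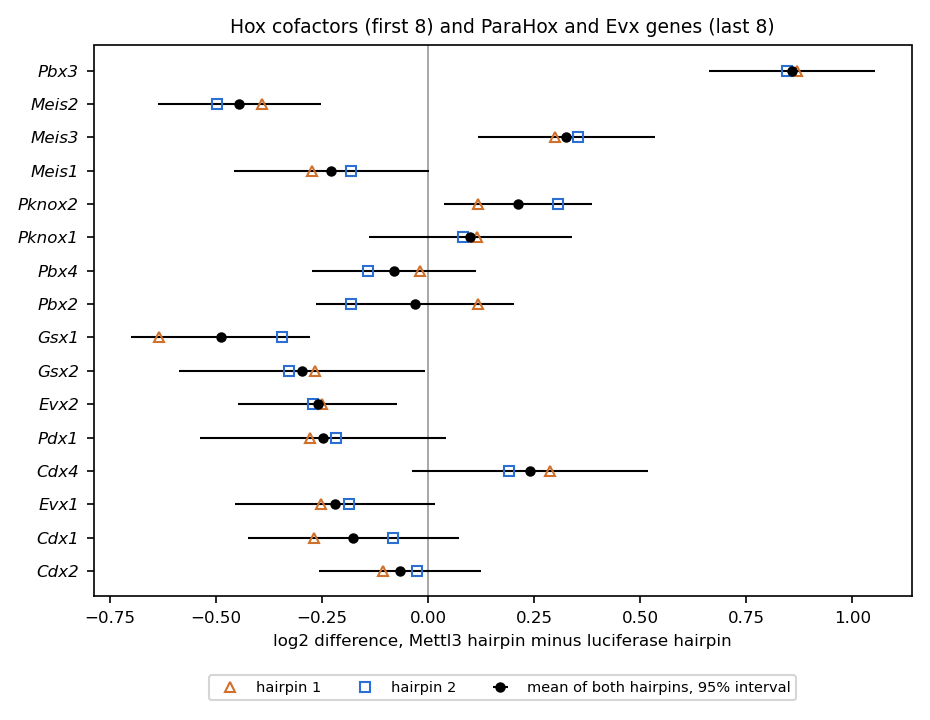
Log2 differences between Mettl3 hairpins and the luciferase hairpin for 8 cofactors (Pbx, Meis and Pknox genes) and 8 ParaHox and Evx genes; black points with 95% intervals are both hairpins together, open symbols the single hairpins. Pbx3 lies alone at 0.86, and 7 of the 8 ParaHox and Evx genes lie below 0.

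The ParaHox and Evx genes are homeobox relatives of the Hox genes, and Evx1 and Evx2 lie beside clusters A and D. Of 8 tested 0 rose and 1 fell by limma for both hairpins, against 7.9% of all genes called. Of the 8 values 7 were negative with a median of -0.23, against 49.9% negative over all genes. Gsx1, a gene of the ventral forebrain and hindbrain, stood at 7.25, 7.30 and 7.39 with luciferase, 6.72 and 6.64 with hairpin 1 and 6.81 and 7.13 with hairpin 2. All knockdown arrays were below the controls, and it fell by 0.49 ± 0.09 (SE, log2; limma adjusted p = 0.0132). The call was lost without luciferase array 3, with a replicate block, labelled or crossed, and with no filter (-0.57 to -0.24 over 17 alternatives, adjusted p up to 0.0685). Caudal genes, which activate Hox genes in the trunk, gave -0.07 for Cdx2, -0.18 for Cdx1 and 0.24 for Cdx4, none called.

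Of 15 genes flanking the clusters, 0 rose and 1 fell: Tax1bp1, an autophagy receptor gene beside cluster A, by 0.41 ± 0.09 (SE, log2; limma adjusted p = 0.0266), a call lost in 10 of 17 alternatives and on leaving out any of 6 of the 7 arrays, the exception being array 1 of hairpin 1 (-0.49 to -0.32, adjusted p up to 0.143). Of 18 retinoic acid genes, 1 rose: Rdh10, which oxidises retinol, by 0.30 (adjusted p = 0.0425), a call lost in 16 of 17 alternatives, each of the 7 arrays left out included (0.10 to 0.34, adjusted p up to 0.419). Of 21 Polycomb genes, 1 fell: Eed, a core subunit of the Polycomb methyltransferase, by 0.29 (adjusted p = 0.0468), a call lost in 12 of 17 alternatives, each of the 7 arrays left out included (-0.34 to -0.18, adjusted p up to 0.202). Of 11 Trithorax, MLL and demethylase genes limma called 0 (2 at an unadjusted p below 0.05), the largest differences being -0.29 for Ash2l and -0.21 for Rbbp5, both subunits of MLL complexes. Of the noncoding RNAs of the clusters 2 could be tested and 0 were called (1 at an unadjusted p below 0.05), with 0.29 for Hoxb5os and -0.11 for Hoxaas3. Whether their probe sets also read the Hox genes beside them was not tested. The counts of these lists stand beside 7.9% of all genes called by limma for both hairpins, with 24.2% at an unadjusted p below 0.05.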

How the data were processed

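The authors deposited log2 values of 1201338 probe sets for each of 7 arrays. Per the submitters' processing notes, RMA and R 2.11.1 were used. Not given in the sources used here were the build, the probe set definition and filters. Such processing brings arrays to 1 distribution, which would hide a shift of most transcripts. Symbols came from the platform's annotation table, older ones updated through RefSeq synonyms (GRCm38.p6).

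Probe sets with 1 symbol and a mean over 7 arrays above the median of all (6.02) were kept. A gene's value was the median of at least 3 of them per array. Groups were fitted with limma 3.58.1 (lmFit, eBayes) in R 4.3.3 on all 7 arrays, with 4 residual degrees of freedom, and p-values were adjusted by Benjamini-Hochberg over all genes or probe sets and called below 0.05. Intervals are 95%. The fit was tested on simulated data. Alternatives covered the filter, the gene summary, normalization, eBayes settings, a replicate block and leaving out each array. A crossed block, and the alternatives for Hoxb1 with hairpin 2 and for the named genes outside the clusters, were chosen after seeing the data.

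Named genes were Mettl3, every Hox gene called in any of 4 contrasts, the 6 other largest differences, and the highest and lowest tested gene of each cluster with luciferase. Of each other list, up to 4 called genes or the 2 largest differences were named. This did not extend to the cell type markers, whose called genes were counted and not named. Other genes named, such as Hoxc11, were picked after their values were seen. The members and lists were chosen with earlier results of these data known.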

Additional observations from a re-analysis of the deposited data

Results flagged for a closer look

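Hoxa3 and Hoxc4 stood out because the arrays of the Mettl3 hairpins lay on opposite sides of the luciferase mean. Hoxa3 differed from luciferase by 0.29 with hairpin 1 and -0.01 with hairpin 2, a difference between hairpins of 0.31 (limma adjusted p = 0.647). Hoxc4 differed by -0.18 with hairpin 1 and 0.10 with hairpin 2, a difference between hairpins of -0.28 (adjusted p = 0.690). Neither difference between hairpins passed the threshold in that comparison, and no further test of it was run.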

How the results depend on the processing

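The median difference of the Hox genes stayed negative under every alternative run, from -0.15 to -0.05, and Mettl3 was called in each. For both hairpins the count of Hox genes called was 1 of 36 tested with no filter on dim probe sets (Hoxc11), where 484 of 19993 genes were called. It was 1 of 24 with eBayes trend and robust (Hoxd3, limma adjusted p = 0.0478), where 1609 of 16353 were called. On leaving out a luciferase array it was 0 to 1 of 24, where 638 to 906 of 16353 were called. For hairpin 1 it was 1 of 24 with the mean of probe sets (Hoxd10), where 2259 of 16353 genes were called. For hairpin 2 it was 0 of 36 with no filter, where 92 of 19993 genes were called. With a stricter filter it was 0 of only 10 tested, where 1073 of 12271 were called. It was also 0 with at least 1 kept probe set, the mean, median polish, eBayes trend and robust and only the 2 groups compared. Those settings called 332 to 1626 of all genes tested. On leaving out a luciferase array it was 0 to 1 of 24, where 246 to 431 of 16353 were called. Between the hairpins it was 0 throughout, as was the count of single probe sets for both hairpins.

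Deviations of same-numbered arrays from their group means correlated between -0.262 and 0.083, and those of differently numbered arrays between -0.275 and 0.275. The deviations of the 2 arrays of a hairpin mirror each other. These values therefore cannot show whether the replicate numbers pair the arrays. With a replicate block the counts of Hox genes called were 0 for both hairpins, 0 for hairpin 1, 0 for hairpin 2 and 0 between them. Same-numbered arrays of the hairpins correlated at -0.177, and a crossed replicate block, added after seeing the data, also gave 0 in each.

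Differences of 6 named Hox genes changed sign. Hoxd3 was 0.049 with no filter. Hoxa11 was -0.49 with no filter and -0.020 with the mean. Hoxb5 was -0.25 with no filter, -0.11 with the mean, -0.038 with median polish, -0.042 with centred arrays and -0.039 to 0.081 on leaving out an array. Hoxc4 was 0.055 with the replicate block or the crossed one and -0.18 to 0.055 on leaving out an array. Hoxc13 was 0.00085 with median polish. Hoxd13 was -0.028 with centred arrays, -0.034 with either block and -0.056 to 0.13 on leaving out an array. By construction, more probe sets entered with no filter and fewer arrays on leaving out an array. The cause of the sign changes was not tested. Of 231 values of named Hox genes under alternatives, 190 kept direction and side of the threshold. Signal near background limits what can be seen in cluster C and in tested genes of the other clusters. Hoxa2, Hoxa9, Hoxb5 and Hoxd13, for example, had luciferase means of 6.73, 6.84, 6.92 and 6.60, below the olfactory receptor mark of 7.17.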
